A study of Mus musculus with 9 samples.

Results

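The 9 genes described here encode enzymes of the tricarboxylic acid (TCA) cycle together with the NADPH-linked isocitrate dehydrogenases, and were followed in the embryonic mouse lens with and without the transcription factor ATF4. They were chosen by symbol as *Cs*, *Idh1*, *Idh2*, *Idh3a*, *Ogdh*, *Sucla2*, *Fh1*, *Mdh1* and *Mdh2*, and each symbol matched 1 of the 55416 gene identifiers in the count files. Total RNA from whole lenses of 4 *Atf4* null and 5 wildtype littermate embryos was sequenced at E16.5, with 1 library from the single pair of lenses of each embryo. The question put by the study was which transcripts depend on ATF4 in the lens at this stage. The null embryos were homozygous for the germline *Atf4*tm1Tow allele, in which a neomycin cassette replaces the coding exons, so no tissue of the embryo had an intact copy. Both groups came from intercrosses of heterozygotes on a mixed C57Bl/6 and 129 background, in which the *Bfsp2* deletion known from 129 mice was not typed. The embryos were not restricted to 1 sex.

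In the TCA cycle, mitochondria oxidise acetyl groups to carbon dioxide and pass the electrons to NAD+ and FAD for respiration. Isocitrate is oxidised by an NAD+-linked enzyme of the cycle, IDH3, and by a pair of NADP+-linked enzymes beside it, IDH1 in the cytosol and peroxisomes and IDH2 in mitochondria, which yield NADPH for the reduction of glutathione and for biosynthesis. The lens lives largely on glycolysis, keeps a high level of reduced glutathione, and holds its mitochondria in the epithelium and the young fiber cells, which lose them as they mature.

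Levels are given as CPM, the count of a gene relative to the TMM-scaled size of its library, and as mean ± SD over the 5 wildtype or the 4 null libraries. Between 8409779 and 8906996 counts per wildtype library and between 7440807 and 8696699 per *Atf4* null library lay on genes. *Atf4* itself was at 119.29 to 155.48 CPM in the wildtype and at 0.58237 to 10.637 CPM in the null libraries, which fits the genotype labels. Lens fiber markers summed to between 13370 and 25440 CPM in the wildtype and between 9404 and 21310 CPM in the null libraries. The lowest wildtype sum was that of replicate 5, and wildtype replicates 1 to 4 lay at 22200 to 25440 CPM, above every null library. The fiber marker *Lim2* had 0 counts in every library and *Lgsn* had 0 in every null library. Wildtype replicate 5 stood apart, with 9527 CPM of skeletal muscle markers against at most 125.2 CPM in the other 8 libraries, and 14430 CPM of mesenchyme markers against at most 554.2 CPM. Wildtype replicate numbers follow the sample titles, which name other libraries than the count files do, and are therefore uncertain within that genotype. In whole lenses, fewer cells of a type and less RNA per cell cannot be told apart.

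Sequence upstream of *Idh1* and *Idh2* is printed first because these were the members whose transcripts differed between genotypes. Each run is the 120 bases before the start of the GENCODE canonical transcript on the minus strand of GRCm39, at chr1:65218341-65218460 for *Idh1* and at chr7:79765141-79765260 for *Idh2*. G and C make up 63.3% of the *Idh1* run and 69.2% of the *Idh2* run.

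Idh1: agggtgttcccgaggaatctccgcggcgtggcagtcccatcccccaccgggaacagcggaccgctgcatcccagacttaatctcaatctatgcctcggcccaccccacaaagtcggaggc

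Idh2: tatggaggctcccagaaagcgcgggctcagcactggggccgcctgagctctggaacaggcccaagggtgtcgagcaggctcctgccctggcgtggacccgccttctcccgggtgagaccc

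ATF4 with a C/EBP partner binds the letters TGATGCAA of amino acid response elements, and bZIP factors of the CREB family bind the palindrome TGACGTCA of the cAMP response element. The study states that ATF4, too, was first found through its binding of cAMP response elements, among others. Promoter windows of 250 bases before to 50 bases after a RefSeq start were searched on both strands for these letters and for TGATGNAA, of which TGATGCAA is one case. RefSeq gave 14 such windows for 8 members and none for *Idh3a*. TGATGCAA and TGATGNAA were in 0 of the 14 windows, against 0.895% and 3.97% of the 32851 windows of the mouse genome. TGACGTCA was in 4 of the 14 windows, which belong to 2 members, *Mdh2* and *Ogdh*, against 1.79% of all windows. Of the 6 *Ogdh* windows 3 overlap and share a single element, and the other 3 lack it, so the 4 windows hold 2 elements and their share is not comparable with that of all windows. These matches are descriptions of the letters in the windows and not sites of binding. The 30 bases around the element, in capitals, are shown for both genes, from chr5:135807365-135807394 for *Mdh2* and chr11:6241535-6241564 for *Ogdh*, on the plus strand of GRCm39. The element begins at position -127 from the RefSeq start of *Mdh2* and at -51 from the most upstream RefSeq start of *Ogdh*.

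Mdh2: ggagagaatcgTGACGTCAggcctcgctcg

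Ogdh: acccaattctgTGACGTCAcgtcacgccca

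Both NADPH-linked isocitrate dehydrogenases were lower in *Atf4* null lenses, while no call was made for the other 7 enzymes, although the call of *Idh1* was lost when libraries were scaled by size alone. *Idh2* transcripts stood at 0.549 of the wildtype level and *Idh1* transcripts at 0.683. With edgeR's quasi-likelihood test and Benjamini-Hochberg adjustment over 14903 genes, 2 of 9 members had an adjusted p below 0.05, against 5.90% of all genes tested. Both were lower, against 3.67% of all genes, and 0 were higher, against 2.23%. These shares are descriptions, since the members were chosen with earlier results of these data known. At an unadjusted p below 0.05 there were the same 2, against 19.6% of all genes, a share too near to that of the members for anything to be read from it. The CPM of the 4 null and 5 wildtype libraries did not overlap for the same 2 members, against 10.2% of all genes. Over the 9 members the median log2 fold change was -0.12, with 7 negative and 2 positive values, and over all genes tested it was 0.00, with 49.94% negative. Scaling by library size alone moved these medians to 0.00 and 0.12. All 9 members passed the filter on low counts.

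**Figure D1:**
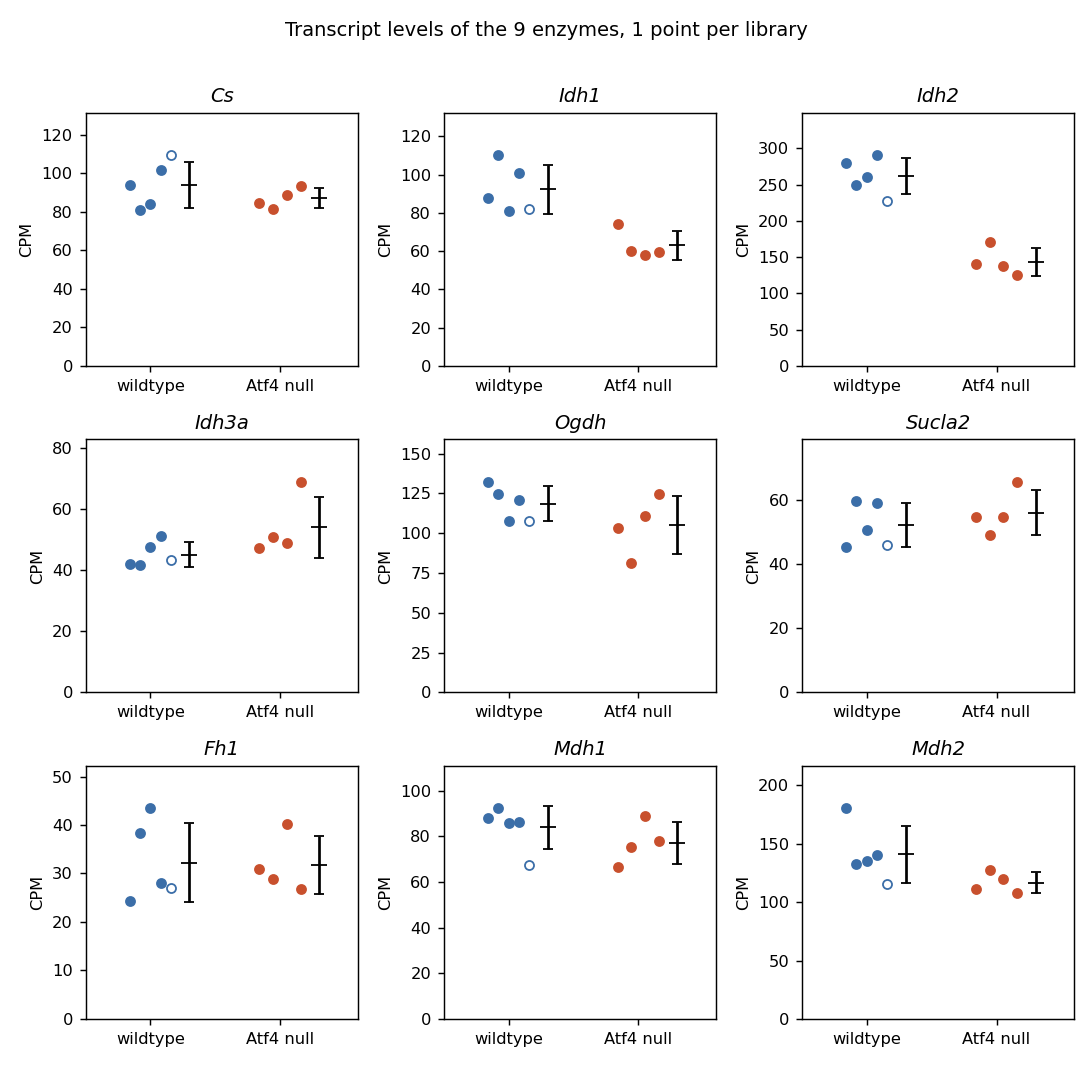
Transcript level of each of the 9 enzymes in CPM on a linear axis from 0, 1 point per library (5 wildtype, 4 *Atf4* null), with the group mean and SD as a bar; the open circle is wildtype replicate 5. The points of the genotypes are apart for *Idh1* and *Idh2* and overlap in the other 7 panels.

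*Idh2* (ENSMUSG00000030541, chr7:79741431-79765535 of GRCm39, minus strand) encodes the mitochondrial NADP+-linked isocitrate dehydrogenase. Its level was 279.75, 250.15, 259.89, 290.62 and 227.56 CPM in wildtype replicates 1 to 5 and 140.14, 171.57, 137.29 and 125.21 CPM in null replicates 1 to 4. The highest null library lay below the lowest wildtype library, which was replicate 5, the one with muscle and mesenchyme transcripts. Group means were 261.6 ± 24.8 CPM (SD, n = 5) and 143.6 ± 19.8 CPM (SD, n = 4). The log2 fold change was -0.87 with a standard error of 0.12 (95% interval -1.13 to -0.60), with an adjusted p of 0.001109 (edgeR's quasi-likelihood test). By p-value it was number 98 of the 14903 genes. A two-sided exact permutation test on mean log2 CPM, made over every way of dividing the libraries into 4 and 5, gave p = 0.0079, the smallest the design allows. In 2491 bases the exons of *Idh2* lie opposite exons of *Zfp710*, a zinc finger gene at 42.7 ± 5.91 CPM in wildtype and 46.9 ± 7.95 CPM in null lenses. The sources used here do not state the strand setting of the counting, and *Zfp710* did not pass the test (log2 fold change 0.14, adjusted p = 0.723 in edgeR).

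*Idh1* (ENSMUSG00000025950, chr1:65196781-65225721, minus strand) encodes the NADP+-linked enzyme of cytosol and peroxisomes. It was read at 88.073, 110.21, 81.03, 100.88 and 81.814 CPM in the 5 wildtype libraries and at 74.455, 60.35, 57.788 and 59.839 CPM in the 4 null libraries. Null replicate 1 came closest to the wildtype range, and the other 3 null libraries lay close together. Means were 92.4 ± 12.7 CPM in wildtype and 63.1 ± 7.65 CPM in null lenses. The log2 fold change was -0.55 with a standard error of 0.13 (95% interval -0.84 to -0.26), with an adjusted p of 0.02816 in edgeR and p = 0.0079 in the exact permutation test, two-sided. This call was less firm than that of *Idh2*, as 7 of 18 alternatives ended it without a change of direction. Scaled by library size alone, *Idh1* had a log2 fold change of -0.41 (adjusted p = 0.116). Without null replicate 2, 3 or 4 the adjusted p was 0.0861, 0.0913 or 0.0562, and without wildtype replicate 1, 2 or 4 it was 0.0539, 0.0817 or 0.0792. *Idh2* passed in all 18 alternatives, with log2 fold changes from -0.96 to -0.73 and adjusted p from 1.89e-09 to 0.00635.

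*Idh3a* (ENSMUSG00000032279, chr9:54493575-54514730, plus strand) encodes the catalytic subunit of the NAD+-linked enzyme that works inside the cycle. Its level was 41.982, 41.589, 47.556, 51.137 and 43.477 CPM in the wildtype and 47.344, 50.992, 48.906 and 69.011 CPM in the null libraries. The genotypes overlapped, and null replicate 4 was well above the other 3 null libraries. The log2 fold change of 0.26 (95% interval -0.07 to 0.59) did not pass the test, with an adjusted p of 0.387 (edgeR). Of the partner subunits, *Idh3b* was at 78.3 ± 11.2 CPM in wildtype and 84.6 ± 14.6 CPM in null lenses, with an adjusted p of 0.764 (edgeR). *Idh3g* had a log2 fold change of 0.38 and an adjusted p of 0.224 (edgeR).

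Because a ratio of transcripts within a library hardly depends on how libraries are scaled, the isocitrate enzymes were also set against each other. The log2 ratio of *Idh2* to *Idh3a* was 2.73, 2.58, 2.44, 2.50 and 2.38 in the wildtype libraries and 1.56, 1.75, 1.48 and 0.86 in the null libraries, with no overlap. Its mean fell by 1.12, from 2.53 ± 0.13 to 1.41 ± 0.39, so that the ratio in null lenses was 0.462 of that in wildtype lenses. The exact permutation test gave a two-sided p of 0.0079, and 0.032 after Benjamini-Hochberg adjustment over the 4 ratios computed. With 1 library left out fewer splits exist, and the adjusted p was 0.071 to 0.11, except without null replicate 4. These are the smallest values that 1 ratio alone can reach there, so they say nothing of the strength of the difference. Without null replicate 4 it was 0.036, as the *Sucla2* to *Suclg2* ratio also had 0.036 and the adjustment was therefore milder. The difference itself was smallest without that library, at -0.93. The log2 ratio of *Idh1* to *Idh2* overlapped between genotypes, at -1.50 ± 0.20 in wildtype and -1.18 ± 0.26 in null lenses, with an adjusted p of 0.17 in the exact permutation test. A difference between the falls of the 2 NADPH-linked enzymes was therefore not shown.

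**Figure D2:**
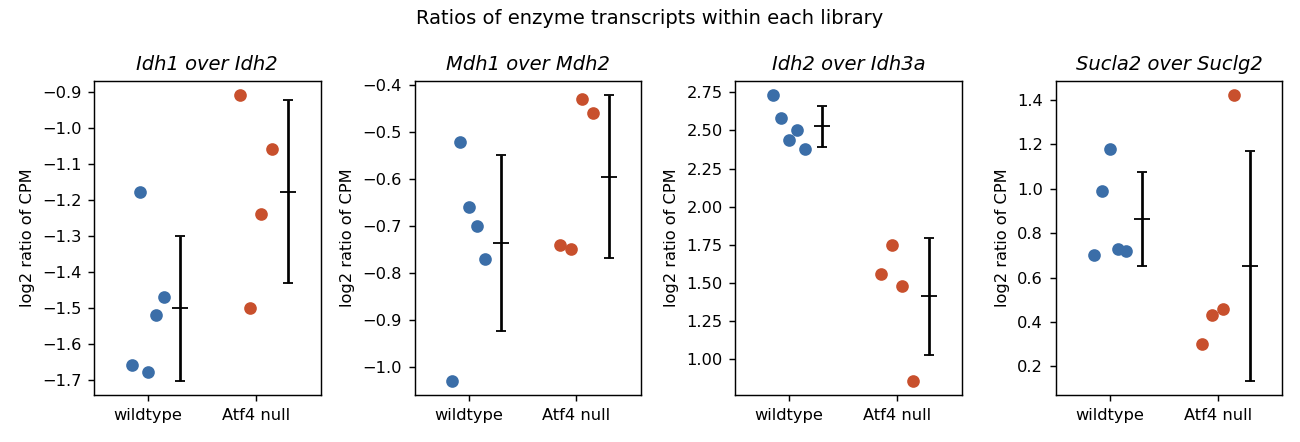
Log2 ratio of CPM between pairs of enzyme transcripts within each library, 1 point per library with the group mean and SD as a bar; each panel has its own linear axis. The *Idh2* to *Idh3a* ratio is the 1 panel in which the genotypes are apart, and in the *Sucla2* to *Suclg2* panel null replicate 4 lies at 1.42, above the other 3 null libraries.

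*Cs* (ENSMUSG00000005683, chr10:128172837-128198363, plus strand) encodes citrate synthase, which joins acetyl-CoA to oxaloacetate at the start of the cycle. It ranged from 80.8 to 109.4 CPM in the wildtype and from 81.7 to 93.5 CPM in the null libraries, so that the null range fell within the wildtype one. The log2 fold change was -0.11 (95% interval -0.37 to 0.15), with an adjusted p of 0.692 in edgeR. *Ogdh* (ENSMUSG00000020456, chr11:6241551-6309233, plus strand) encodes the first component of the 2-oxoglutarate dehydrogenase complex. Its mean was 118.6 ± 10.9 CPM in wildtype and 105 ± 18.1 CPM in null lenses, and its log2 fold change was -0.18 (95% interval -0.46 to 0.11).

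*Sucla2* (ENSMUSG00000022110, chr14:73762759-73834335, plus strand) encodes the ADP-forming β subunit of succinyl-CoA ligase, for which *Suclg2* encodes the GDP-forming alternative. *Sucla2* was at 52.1 ± 6.91 CPM in wildtype and 56.0 ± 6.97 CPM in null lenses, a log2 fold change of 0.10 (95% interval -0.21 to 0.42). The log2 ratio of *Sucla2* to *Suclg2* was 0.86 ± 0.21 in wildtype and 0.65 ± 0.52 in null lenses, with an adjusted p of 0.47 in the exact permutation test. Null replicate 4 set the spread of the null group, at 1.42 against 0.30, 0.43 and 0.46 in the others. Without that library the adjusted p was 0.036.

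*Fh1* (ENSMUSG00000026526, chr1:175425290-175453205, minus strand) encodes fumarase, which hydrates fumarate to malate. It ranged from 24.4 to 43.5 CPM in the wildtype and from 26.8 to 40.2 CPM in the null libraries. Its log2 fold change of -0.02 had the widest 95% interval of the 9, from -0.47 to 0.43, and its adjusted p was 0.973 in edgeR.

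Malate dehydrogenase, which interconverts malate and oxaloacetate, has a mitochondrial form encoded by *Mdh2* (ENSMUSG00000019179, chr5:135807292-135820882, plus strand) and a cytosolic form encoded by *Mdh1* (ENSMUSG00000020321, chr11:21506423-21522367, minus strand). *Mdh2* was at 180.51, 133.04, 135.5, 140.25 and 115.12 CPM in the wildtype and at 111.23, 127.3, 119.96 and 107.59 CPM in the null libraries. The groups overlapped through wildtype replicate 5, and wildtype replicate 1 was the highest. For *Mdh2* the log2 fold change was -0.27 (95% interval -0.56 to 0.01), with an adjusted p of 0.275 in edgeR and 0.063 unadjusted in the exact permutation test. *Mdh1* had a log2 fold change of -0.12 (95% interval -0.40 to 0.16), from 84.0 ± 9.56 CPM in wildtype to 77.2 ± 9.21 CPM in null lenses. The log2 ratio of *Mdh1* to *Mdh2* was -0.74 ± 0.19 in wildtype and -0.60 ± 0.17 in null lenses, with an adjusted p of 0.37 in the exact permutation test.

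Exons of *Cs*, *Idh3a*, *Fh1* and *Mdh1* also share between 56 and 1875 bases with genes on the opposite strand. Of these partners *Kmo* and *Acsbg1* had 1 and 6 counts in all libraries together, *Coq10a* had 596 and *Wdpcp*, opposite *Mdh1*, had 1067. The reads of such pairs cannot be told apart if the counting ignored strand.

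Summed over the 9 members, transcripts took 825.8 to 978.4 CPM in the wildtype and 713.5 to 750.2 CPM in the null libraries, which did not overlap. Without *Idh1* and *Idh2* the sums of the other 7 ran from 516.5 to 606.2 CPM in the wildtype and from 494.6 to 565.2 CPM in the null libraries, which overlapped.

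Levels of different genes were compared per length, as FPKM (TMM-scaled CPM per kilobase of the canonical transcript). In wildtype lenses *Idh2* had the highest level, 150 ± 14.2 FPKM, and *Mdh2* followed at 93.8 ± 16.1 FPKM, with no overlap between them. *Mdh1*, *Cs* and *Idh1* came next at 33.5, 31.8 and 28 FPKM, overlapping as neighbours in the order. *Sucla2*, *Idh3a* and *Ogdh* lay together at 17.5, 17.5 and 17.4 FPKM and below *Idh1* in every library, and *Fh1* was lowest at 6.09 ± 1.55 FPKM.

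In null lenses the level of *Idh2*, 82.1 ± 11.3 FPKM, no longer lay clear of *Mdh2*, 77.6 ± 5.9 FPKM, and their ranges overlapped. *Idh1* stood at 19.1 ± 2.32 FPKM, within the ranges of *Idh3a* at 20.9 and *Sucla2* at 18.8 FPKM. The order depends on the length used, since annotated exons of *Idh2* sum to 8475 bases while its canonical transcript has 1748. With summed exon lengths *Idh2* and *Mdh2* overlapped in wildtype lenses too, at 30.9 and 26.2 FPKM, and *Mdh2* at 21.7 FPKM was above *Idh2* at 16.9 FPKM in null lenses, with overlapping ranges.

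Across the 9 libraries, log2 CPM of *Idh1* and *Idh2* had a Pearson r of 0.84, which was 0.15 once each genotype was centred on its own mean. For *Idh2* and *Mdh2* r was 0.75 over the libraries and 0.70 within genotypes, and for *Idh3a* and *Sucla2* it was 0.64 and 0.59. The genes whose pattern over the 9 libraries was most like that of *Idh2*, among 14902 others, were *Grid1* (r = 0.99), *Sox2ot* (r = 0.99) and *Tkt* (r = 0.98), the last encoding transketolase of the pentose phosphate pathway. Their log2 fold changes were -1.59, -1.90 and -1.12, so these r include the difference between genotypes. For these genes r within genotypes was not computed. *Tkt* was at 332.93 to 506.1 CPM in the wildtype and at 187.09 to 246.8 CPM in the null libraries. All these values share the libraries and their scaling and are descriptions.

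Of the 14 enzymes and subunits of the cycle that are not among the 9, 14 were tested and 0 were called in either direction by edgeR or by DESeq2, against 5.90% of all genes in edgeR. At an unadjusted p below 0.05 there was 1, *Idh3g*, against 19.6% of all genes. With so few genes nothing is read from these shares. Of their log2 fold changes 10 were positive and 4 negative. Their median log2 fold change was 0.16 and their range was -0.14 to 0.38. *Sdha*, the flavoprotein of succinate dehydrogenase, had a log2 fold change of -0.05.

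**Figure D3:**
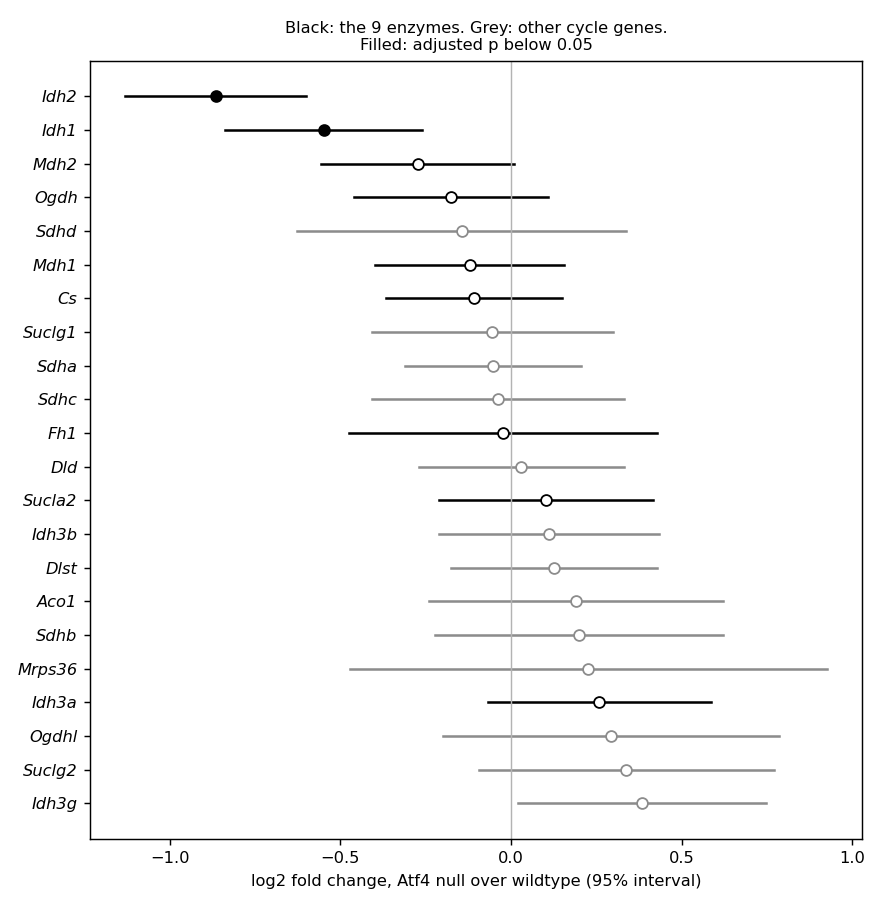
Log2 fold change (*Atf4* null over wildtype) with its 95% interval for the 9 enzymes in black and 13 of the 14 other genes of the cycle in grey (1 is not reported here), ordered by value; filled points have an adjusted p below 0.05 in edgeR. *Idh2* at -0.87 and *Idh1* at -0.55 are the filled points, and the 13 grey points run from -0.14 to 0.38.

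Of 64 tested genes in 5 lists around the 9 enzymes, the cycle genes just given included, 8 were called, against 5.90% of all genes. These lists too were chosen with earlier results of these data known. Among 13 tested genes of pyruvate entry, 0 were higher and 1 was lower in null lenses. This was *Pdk1*, a kinase that inhibits pyruvate dehydrogenase, which fell from 47.3 ± 12.6 CPM to 20.7 ± 4.75 CPM, a log2 fold change of -1.19 with an adjusted p of 0.007509 (edgeR). The highest null library, at 26.1 CPM, lay below the lowest wildtype library, at 31.3 CPM. *Pdk2*, which had the highest FPKM of the list when both genotypes were averaged but in neither genotype alone, had a log2 fold change of 0.05 (adjusted p = 0.931 in edgeR).

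Of 14 tested genes that exchange intermediates with the cytosol or refill the cycle, edgeR called 1 higher and 1 lower. Of all genes it called 2.23% higher and 3.67% lower. DESeq2 called 2 of the 14 higher and 1 lower. *Slc25a22*, a mitochondrial glutamate carrier, rose from 33.2 ± 8.99 CPM to 73.2 ± 14.2 CPM, with a log2 fold change of 1.14 and an adjusted p of 0.004591 (edgeR). *Slc25a11*, which exchanges 2-oxoglutarate for malate across the inner membrane, fell from 35.8 ± 6.14 CPM to 19.4 ± 4.92 CPM, with an adjusted p of 0.02701 (edgeR). Leaving out null replicate 1 or 2, or any of wildtype replicates 1 to 4, raised that p above 0.05, to at most 0.0925.

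Of 13 genes that make NADPH by other routes or make its precursor, edgeR called 0 higher and 3 lower, against 2.23% and 3.67% of all genes. *Aldh1l1*, a cytosolic formyltetrahydrofolate dehydrogenase, fell from 8.76 ± 1.25 CPM to 0.614 ± 0.613 CPM, where the null libraries held 15, 1, 5 and 2 counts (adjusted p = 0.002255 in edgeR). *Mthfd2*, a mitochondrial methylenetetrahydrofolate dehydrogenase, fell from 20.9 ± 6.74 to 7.27 ± 2.90 CPM (adjusted p = 0.01706 in edgeR, and 0.0542 without null replicate 2). *Pgd*, the 6-phosphogluconate dehydrogenase of the pentose phosphate pathway, fell from 47.8 ± 6.48 to 29.1 ± 6.07 CPM, with an adjusted p of 0.03516 in edgeR. Library size alone, leaving out null replicate 2 or 3, or leaving out any of wildtype replicates 1 to 4 raised that p above 0.05, to at most 0.0938. *Nadk*, the NAD kinase of the cytosol and the gene of this list with the highest FPKM averaged over both genotypes, though below *Pgd* in wildtype lenses, had a log2 fold change of 0.21 (adjusted p = 0.638 in edgeR).

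The mitochondrial genome, which encodes core subunits of the respiratory chain, took 5.468% to 6.284% of gene counts in the wildtype and 5.343% to 6.016% in the null libraries, which overlapped. The count files hold few reads of some of its genes, as *mt-Atp8*, *mt-Co3*, *mt-Atp6* and *mt-Co2* are listed at 0, 37, 96 and 134 counts over the 9 libraries, against 163044 for *mt-Co1*. Of its 13 protein genes 10 were tested. Among these edgeR called 0 higher and 2 lower, against 2.23% and 3.67% of all genes, and both lower ones encode subunits of complex I. DESeq2 called 1 higher, *mt-Nd6*, and 3 lower, *mt-Cytb* being the third. *mt-Nd1* fell from 819.6 ± 83.8 to 578.1 ± 15.7 CPM and *mt-Nd2* from 348.9 ± 33.6 to 236.5 ± 6.06 CPM, with adjusted p of 0.01545 and 0.0069 in edgeR. The call of *mt-Nd1* was lost with library size alone (adjusted p = 0.0546) and without null replicate 2 (adjusted p = 0.0617). *mt-Nd6*, another subunit of complex I, was at 151.68 to 200.79 CPM in the wildtype and at 205.82 to 237.32 CPM in the null libraries, with no overlap, a log2 fold change of 0.36 and an adjusted p of 0.0814 in edgeR. *mt-Co1*, a subunit of complex IV and the gene of this list with the highest FPKM averaged over both genotypes, was at 2199 ± 107 CPM in wildtype and 2128 ± 160 CPM in null lenses.

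Markers of cell types were set beside *Idh2*, as some differed with the genotype or in 1 library. Of all genes tested, edgeR called 2.23% higher and 3.67% lower in null lenses. An unadjusted p below 0.05 was found for 19.6% and a negative log2 fold change for 49.94%. Markers of neural retina, 10 of 10 with a positive log2 fold change and 4 of 10 called higher in null lenses, summed to between 167 and 281.3 CPM in the wildtype and to 799.4, 494.9, 551.7 and 296.3 CPM in null replicates 1 to 4. Of 7 lens epithelium markers, 7 had a negative log2 fold change and 4 were called lower by edgeR, with a median of -0.63, and they summed to 1617 to 2606 CPM in the wildtype and 1428 to 1978 CPM in the null libraries. Of 9 lens fiber markers tested, 8 had a negative log2 fold change and 4 were called lower, with a median of -0.47. The sums of both lists overlapped between the genotypes only through wildtype replicate 5, at 1617 CPM for epithelium and 13370 CPM for fiber. In wildtype replicates 1 to 4 they were 2553 to 2606 CPM and 22200 to 25440 CPM, above every null library. Of 6 erythroid markers tested, 6 had a negative log2 fold change and 1 was called lower, with a median of -0.99, and of 6 vascular endothelium markers 6 were negative and 0 called by edgeR, 4 of them at an unadjusted p below 0.05, with a median of -0.75. Erythroid sums were 230.8 to 740.3 CPM in the wildtype and 181.6 to 254.4 CPM in the null libraries, and endothelium sums 280.9 to 522 and 137.1 to 320 CPM, both overlapping. The part of retinal RNA or of lens, blood or vascular cell types in the results for *Idh1* and *Idh2* was not tested. Among the null libraries, replicate 4 had the highest epithelium and lens fiber sums, 1978 and 21310 CPM, and the lowest retina sum, 296.3 CPM. Its *Idh2* level, 125.21 CPM, was the lowest of all libraries. Among the wildtype libraries, replicate 5 had the lowest epithelium and fiber sums and the lowest *Idh2* level, 227.56 CPM. That library also held muscle and mesenchyme transcripts. Without wildtype replicate 5 the adjusted p of *Idh1* was 0.0139 in edgeR, and 2 of 9 members were called, as with it.

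**Figure D4:**
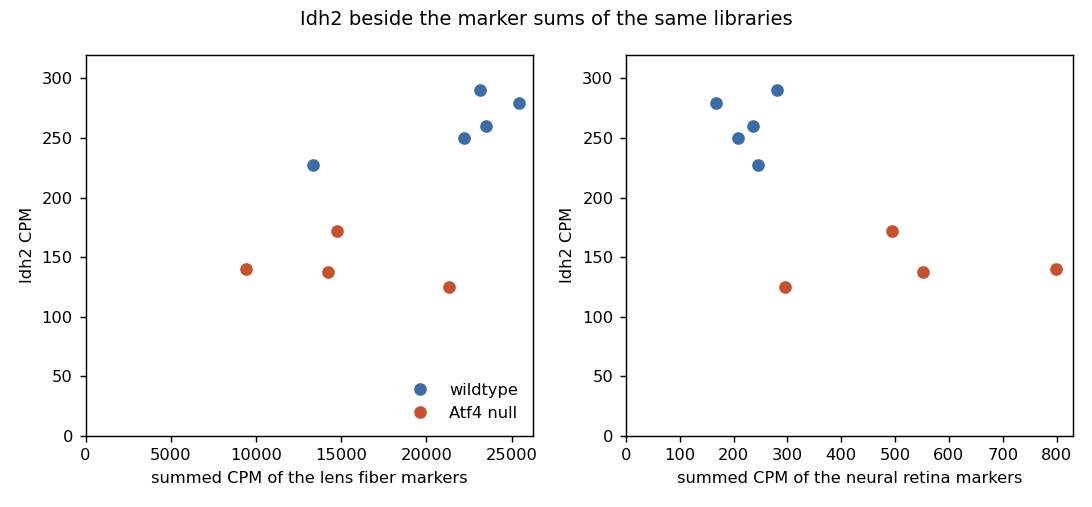
*Idh2* level against the summed level of lens fiber markers (left) and of neural retina markers (right), all in CPM on linear axes from 0, 1 point per library. Fiber markers span 13370 CPM, in wildtype replicate 5, to 25440 CPM in the wildtype and 9404 to 21310 CPM in the null libraries. Retina markers span 167 to 281.3 CPM in the wildtype and 296.3 to 799.4 CPM in the null libraries. *Idh2* lies between 227.56 and 290.62 CPM in the wildtype and between 125.21 and 171.57 CPM in the null libraries.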

How the data were processed

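Per the labels and the methods of the study, the authors trimmed reads from strand-marking Takara SMARTer total RNA libraries with Trim Galore, used HISAT2 to remove ribosomal reads, mapped what remained to GRCm39 and counted reads per Ensembl gene with HTSeq. The labels name a mirVana kit for the RNA and the methods an RNeasy kit. The deposited values are raw counts, whole numbers with no normalization, 1 file per library. HTSeq's summary entries, 44.56% to 47.72% of reads, were left out. Identifiers were joined to GENCODE vM39 (54749 of 55416 had a symbol, and the rest held 0.033% of counts). Chi-square values between the counts of 36 library pairs were at least 7.93 per degree of freedom, so none repeated another.

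Counts were analysed in R 4.3.3 with edgeR 4.0.16: filterByExpr, TMM factors, glmQLFit and glmQLFTest on all 9 libraries with no covariate, and Benjamini-Hochberg adjustment over 14903 genes at 0.05. Log2 ratios used a prior count of 2. Embryos are the replicates, and which of these littermates shared a litter is not given in the sources used here. The procedure was tested on simulated counts of 14393 genes, where it called 42% of genes changed by 1 and 83% of genes changed by 2 on the log2 scale, and 6.02% of its calls were false.

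The members and the gene lists were chosen with earlier results of these data known. The genes named are the 9 members, *Atf4*, in each pathway list every gene called and the one of highest FPKM averaged over both genotypes, and the 3 genes most correlated with the member of lowest p. Some of these genes are not reported here. *Suclg2* enters 1 of the ratios. *Zfp710*, the other opposite-strand genes, *Idh3g*, *Sdha*, *mt-Nd6* and *mt-Cytb* are named because a result touches them, and were chosen with their values seen. Alternatives were DESeq2 1.42.0, exactTest, other scalings and filters, a robust fit, the replicate number as a block, and leaving out each library. Promoter windows are those of RefSeq (GRCm38.p6), matched once each to GRCm39 with Python 3.11.15. Near-identical transcripts were searched with BLAST 2.17.0 at 95% identity over 400 bases, and none were found beyond the opposite-strand overlaps.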

Additional observations from a re-analysis of the deposited data

Results flagged for a closer look

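In 42 groups of libraries, those of the 9 members, the 8 pathway genes called and the 4 ratios in each genotype, the highest or lowest library was compared with its neighbours, and 6 groups held a library far from the others. Chance gives about 1 in 20. *Idh1* was at 74.5 CPM in *Atf4* null replicate 1 and at 57.8 to 60.3 CPM in the other null libraries. *Idh3a* was at 69 CPM in null replicate 4, above 47.3 to 51 CPM in the others. The log2 ratio of *Sucla2* to *Suclg2* was 1.42 in the same library, far above its range in the other null libraries. *Mdh1* at 67.6 CPM and *Pgd* at 36.4 CPM were lowest in wildtype replicate 5, the library with muscle and mesenchyme transcripts, while the other wildtype libraries had 85.7 to 92.4 CPM of *Mdh1* and 49.7 to 52.7 CPM of *Pgd*. *mt-Nd2* was at 407 CPM in wildtype replicate 2 and at 318 to 343 CPM in the other 4.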

How the results depend on the processing

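Over the 18 alternatives the call of *Idh2* was kept, that of *Idh1* was lost in 7, and neither changed sign. The log2 fold change of *Idh1* was -0.41 with library size alone and -0.64 to -0.48 without 1 library. Uncalled members near 0 crossed it, *Fh1* from -0.16 to 0.11 and *Cs* from -0.16 to 0.01. The number of genes called was 880, against 1397 with DESeq2, 852 with the replicate block and 527 (without null replicate 2) to 1207 (without wildtype replicate 5) when 1 library was left out. Scaling by library size alone gave 1229, of which 790 were higher and 439 lower, against 333 and 547 with TMM factors. It left 1 of 9 members called, *Idh2*, and leaving out 1 library gave 1 to 2. Calls among the 64 other pathway genes numbered 8, with 4 (without null replicate 2) to 9 when 1 library was left out and 11 with DESeq2. Library size alone gave 9, of which 4 were higher and 5 lower, against 1 and 7. The difference in the *Idh2* to *Idh3a* log2 ratio ran from -1.23 to -0.93 without 1 library, with adjusted p of 0.036 to 0.11, since fewer libraries allow fewer splits. That of *Sucla2* to *Suclg2* ran from -0.47, without null replicate 4, to -0.09.

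Equal replicate numbers, which are uncertain for the wildtype libraries, showed no pairing, as correlations of same-numbered deviations were -0.13, -0.02, -0.02 and 0.01. With the replicate block 2 of 9 members and 8 of 64 pathway genes were called, as without it. Among the pathway genes called, depth was lowest for *Aldh1l1*, with 1 to 15 counts in a null library.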
